A study of Mus musculus with 13 samples.

Results

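The deposited libraries of this mouse liver cancer study carry a digit in their names, 6, 7 or 8, that the labels do not explain. Here the 7 libraries with the digit 7 (series 7) were compared with the 4 libraries with the digit 6 (series 6), 11 of the 13 libraries in all, and the 2 libraries with the digit 8 were left out. The libraries were chosen by the digit alone and not by any measured value. All came from liver tumours of Mst1-/-; Mst2Flox/Flox mice on a mixed C57BL/6; 129Sv background, injected with Adeno-Cre, so that both Hippo kinases were lost in the liver. Lipid nanoparticles with siRNA were given into a vein for 9 days, against luciferase (siLuciferase-LNPs, here siLuc), which mice do not carry, or against Yap (siYap-LNPs, here siYap). Series 6 held siLuc replicates 1 and 2 and siYap replicates 1 and 2. Series 7 held siLuc replicates 3 to 7 and siYap replicates 3 and 4. The sources used here do not give the age of the mice, the hour at which tissue was taken or the feeding state. Cre acts only in the cells that the virus reaches, so a tumour sample holds, beside the tumour cells, vessels, immune cells and stroma in which Mst2 may be intact. In such bulk RNA, fewer cells of a type and less RNA per cell cannot be told apart.

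The liver clock runs as a loop of transcription. Bmal1 (gene Arntl), paired with Clock or with its relative Npas2, switches on genes that carry E-boxes, among them the repressors Per and Cry and the output factors Dbp, Tef and Hlf, which in turn act through D-boxes. The nuclear receptors Ror (including Rora) and Rev-erb (Nr1d1 and Nr1d2) act on Arntl through a shared element, the RORE, the former as activators and the latter as repressors, so that Arntl and the Per and Dbp group are at their highest at opposite times of the day. In the liver this loop, food intake and hormones together set the daily course of lipid, sterol and drug metabolism.

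The libraries also share a second number in their names, which the labels likewise do not explain. The 11 libraries carried 6 such numbers: 89 for siLuc replicates 1 and 2, 90 for siYap replicates 1 and 2, 92 for siLuc replicate 3, 94 for siLuc replicate 4, 96 for siLuc replicates 5 to 7 and 99 for siYap replicates 3 and 4. Each treatment thus had 1 number in series 6. If libraries of 1 number share an animal, the p-values over libraries are too small, and in any case they measure only the spread between these libraries. Totals ran from 23637021 to 34609424 fragments in series 6 and from 25801886 to 35820051 in series 7. Rn45s, the precursor of ribosomal RNA, stood highest in siYap replicate 1 (1160 CPM, fragments scaled to the library total) and siYap replicate 3 (1882 CPM), 1 library of each series, and between 479.5 and 811.8 CPM in the others. All 11 libraries were female by Xist and Y-linked genes. The hepatocyte markers Apoa1, Ttr, Hnf4a and Serpina1a were present in all 11, with Hnf4a between 61.1 and 108 FPKM (fragments per kilobase of transcript, scaled to depth). Stk4, which encodes Mst1, was at most 0.0891 FPKM, and Yap1 was at 8.10 to 11.9 FPKM in siLuc and 2.23 to 4.17 FPKM in siYap libraries. On the first principal component, with 39.6% of the variance of log2 CPM, all siYap libraries lay apart from all siLuc libraries. On that component the siYap libraries of series 6, at 55.8 and 63.8, also lay below those of series 7, at 100.02 and 75.6, while the siLuc libraries of the series overlapped. The series overlapped within each treatment on the second component (12.7%). On the fourth (9.5%) siLuc replicates 1 and 2, at -49.7 and -27.2, lay below the other siLuc libraries, at 5.06 to 22.8. The siYap libraries overlapped there, at -42.1 and 4.33 in series 6 and -14.73 and 39.77 in series 7.

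Few genes separated the series. With treatment as a term in edgeR's quasi-likelihood test, 36 of 15818 genes tested (0.228%) passed an adjusted p under 0.05. Of these, 21 (0.133%) were higher in series 7 and 15 (0.0948%) were lower, and 28 differed by at least 1 on the log2 scale. In the same fit 4396 genes (27.8%) passed for siYap against siLuc. At an unadjusted p under 0.05, 760 genes (4.8%) were higher and 876 (5.54%) lower in series 7. The median log2 difference over all genes was -0.01, and the median size of a difference was 0.21. Of all genes tested, 48.5% were higher in series 7 whatever their p. All 36 genes had the same sign within siLuc and within siYap, against 8558 genes (54.1%) overall. Every series 7 library stood above every series 6 library for 12 of the 36 genes and below for 8, against 109 genes (0.689%) and 80 genes (0.506%) of all tested. Since the 36 were called on this contrast, these counts describe them and support nothing further. They lay on 14 of 20 chromosomes, with at most 6 on 1 chromosome, and only Tspan4 and Chid1 lay within 1 Mb of each other.

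Over file-name numbers instead of libraries, hardly any gene remained. With counts summed per number, 1 gene passed, 4931408D14Rik, while 1722 genes had an unadjusted p under 0.05. A two-sided exact permutation of the series labels over libraries within each treatment (126 arrangements) gave 34 of the 36 genes the smallest p it can reach (0.00794), and gave Myom2 and Ndrg1 0.0159. The 36 were called on this contrast in these libraries, so this permutation adds no separate support. Clock and Per3, among the genes that did not pass, also reached 0.00794 in it. The same exact test over the 6 numbers has 8 arrangements, cannot go below p = 0.125, and gave that value for 35 of the 36 and 0.25 for Fgf1. Because series 6 holds 1 number for each treatment, the series and whatever the libraries of a number share cannot be told apart there. Without the 3 libraries of number 96, 5 genes passed, and without the 2 of number 89, 9 passed. Leaving out single libraries gave 66 genes without siLuc replicate 1, 21 without siLuc replicate 2 and 23, 14, 18 and 15 without siLuc replicates 4, 5, 6 and 7. Of the 36 genes, 11 passed without each library in turn, and none changed sign under any alternative.

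**Figure D1:**
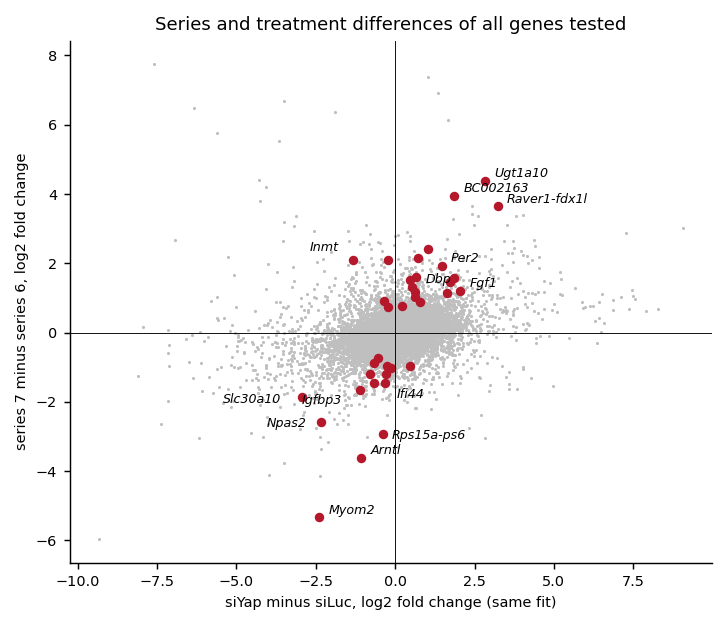
Each grey point is 1 of the 15818 genes tested, with its log2 fold change for siYap against siLuc on the horizontal axis and for series 7 against series 6 on the vertical axis, both from 1 fit; the 36 red points passed the test for the series. Most red points lie away from 0 on both axes, with Arntl and Rps15a-ps6 low and near the vertical axis.

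Genes of the circadian clock were the most numerous among the 36 of the gene lists examined. Of the 21 clock genes tested, 7 passed, 2 lower and 5 higher in series 7, where 0.228% of all genes passed, 0.0948% lower and 0.133% higher (33 lists of genes were examined, and 28 held no gene that passed). Arntl and Npas2 fell, and Dbp, Tef, Per2 and Wee1 were among those that rose. All 7 also differed by treatment in the same fit at an unadjusted p under 0.05, each in the same direction as by series. By that p they do not belong to the genes that followed the series alone. For Arntl this treatment term does not describe both series, since in series 7 its siYap libraries lay within the siLuc range. The clock lists were chosen with the series differences of clock genes already known from these libraries.

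Arntl (Bmal1, the core activator; chromosome 7, 113178471 to 113314126, mm10) had the smallest p of all genes. It stood at 9.21 and 9.59 FPKM in siLuc replicates 1 and 2, and at 0.485, 0.601, 0.437, 0.527 and 0.305 FPKM in siLuc replicates 3 to 7. In siYap it stood at 1.48 and 2.59 FPKM in replicates 1 and 2 and at 0.385 and 0.424 FPKM in replicates 3 and 4. Every series 6 library lay above every series 7 library, and the siLuc libraries of series 6 were far above all others. Both siYap libraries thus lay below both siLuc libraries in series 6, while in series 7 they lay within the siLuc range. The log2 difference was -3.61 ± 0.33 (SE; 12.2-fold lower in series 7), with an adjusted p of 0.00117. It was -4.31 within siLuc and -2.38 within siYap, and the difference between these had an unadjusted p of 0.00122 and an adjusted p of 0.406. Arntl passed without each library in turn (adjusted p 0.000117 to 0.00434). Without the 2 libraries of number 89 its difference was -2.38 (adjusted p = 0.153), and with counts summed per number it was -3.57 (adjusted p = 0.106).

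Npas2, which can take the place of Clock beside Bmal1, was low throughout and rested on few fragments. It had 68 and 79 fragments (0.4426 and 0.4662 FPKM) in siLuc replicates 1 and 2, and between 6 and 14 fragments in siLuc replicates 3 to 7. The siYap libraries held 7 and 9 fragments in series 6 and 2 and 3 in series 7. The ranges of the series overlapped, since siYap libraries of series 6 were as low as siLuc libraries of series 7. The log2 difference was -2.57 ± 0.41 (SE, adjusted p = 0.0265), and the adjusted p rose to 0.0674, 0.0968, 0.0682, 0.0877 and 0.0777 without siLuc replicates 1, 2, 4, 5 and 7. Clock itself was at 11.9 to 18.1 FPKM in series 6 and at 7.75 to 11.1 FPKM in series 7 without overlap, with a log2 difference of -0.51 ± 0.15 (SE) that did not pass (adjusted p = 0.204).

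The PAR bZIP factors Dbp and Tef, which carry the output of the clock to metabolic genes, rose in series 7. Dbp stood at 4.78 and 4.18 FPKM in siLuc and 8.98 and 9.46 FPKM in siYap libraries of series 6, against 13.6, 19.02, 16.6, 12.1 and 14.7 FPKM in siLuc and 23.0 and 16.3 FPKM in siYap libraries of series 7. Its series did not overlap (log2 difference 1.59 ± 0.20 SE, adjusted p = 0.00992), and it passed without each library in turn. Tef stood at 10.8, 23.2, 26.5 and 32.4 FPKM in the 4 libraries of series 6 and at 40.6 to 65.4 FPKM in the 7 of series 7, again without overlap. Its log2 difference was 1.32 ± 0.21 (SE, adjusted p = 0.0265), and its adjusted p became 0.0576, 0.0505, 0.0691, 0.0581 and 0.0641 without siLuc replicates 2, 4, 5, 6 and 7. Hlf, the third factor of this family, was 0.62 higher on the log2 scale and did not pass (adjusted p = 0.253), with overlapping series.

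Among the Per repressors, Per2 passed and Per1 and Per3 did not. Per2 was at 0.786 and 1.55 FPKM in siLuc and 4.004 and 2.92 FPKM in siYap libraries of series 6, against 3.98 to 7.16 FPKM in siLuc and 17.8 and 8.02 FPKM in siYap libraries of series 7. The series overlapped at a single pair of libraries, siYap replicate 1 and siLuc replicate 3. The log2 difference of Per2 was 1.93 ± 0.29 (SE, adjusted p = 0.0187), which became 0.0576 without siLuc replicate 2 and 0.0626 without siYap replicate 3. Per3 stood at 0.503 and 1.64 FPKM in siLuc libraries of series 6 and at 5.74 to 8.93 FPKM in those of series 7. Its siYap libraries held 6.64 and 7.08 FPKM in series 6 and 20.8 and 13.8 FPKM in series 7. The log2 difference of Per3 was 2.16 ± 0.39 (SE, adjusted p = 0.0544), and it passed without siLuc replicate 1 (adjusted p = 0.0209) or siYap replicate 4 (0.0292). Per1, at 0.212 and 0.396 FPKM in siLuc libraries of series 6 and 1.17 to 2.95 FPKM in those of series 7, had a log2 difference of 2.151 ± 0.485 (SE, adjusted p = 0.109; 0.0189 without siYap replicate 4).

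Ciart (listed as Gm129, a repressor of Bmal1) and Usp2 (a deubiquitinase with a daily rhythm in liver) had the largest positive differences of the clock genes and did not pass. Ciart was at 0.330 and 0.177 FPKM in siLuc libraries of series 6 and 2.22 to 6.84 FPKM in those of series 7 (log2 difference 2.70 ± 0.60 SE over both treatments, adjusted p = 0.103). Usp2 was at 0.258 and 0.295 FPKM against 1.10 to 3.72 FPKM in the same libraries (2.404 ± 0.476 SE, adjusted p = 0.0728; it passed without siLuc replicate 3, 0.0462, or siYap replicate 4, 0.0294). In siYap, Ciart went from 2.21 and 3.15 to 7.67 and 6.601 FPKM. Its siYap library of series 6 at 3.15 FPKM lay within the siLuc range of series 7, and that at 2.21 FPKM just below it. Wee1, a cell cycle kinase whose gene is driven by the clock in liver, was at 4.86, 2.25, 5.40 and 4.28 FPKM in series 6 and 5.54 to 11.6 FPKM in series 7. Its log2 difference was 1.17 ± 0.17 (SE, adjusted p = 0.0148), with an adjusted p of 0.0507 without siLuc replicate 2.

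The Rev-erb receptors, the Cry repressors, Nfil3, Rora and the Bhlhe factors did not pass. Nr1d1 was at 4.26, 4.37, 11.7 and 9.28 FPKM in series 6 and at 1.89 to 5.18 FPKM in siLuc and 10.1 and 2.86 FPKM in siYap libraries of series 7 (log2 difference -0.48 ± 0.34 SE, adjusted p = 0.683). Its 2 siYap libraries of series 7 thus differed from each other more than the series did. Cry1 had a log2 difference of 0.83 ± 0.30 (SE, adjusted p = 0.323), with 0.21 within siLuc and 1.82 within siYap. Nr1d2 (0.61), Cry2 (0.59), Bhlhe40 (0.34), Bhlhe41 (0.16), Rora (-0.03) and Nfil3 (-0.42) had smaller log2 differences. Of the 13 genes listed for day and dusk, 12 were higher in series 7 and 4 passed. Over all genes tested, 48.5% were higher. The median log2 difference of the 13 was 1.32, against -0.01 over all genes. Under the alternatives tried this median lay between 1.11 and 1.58. The 8 genes listed for night and dawn held 1 rise and 2 falls (Arntl and Npas2), with a median of -0.23 that changed sign in 3 of 32 settings.

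**Figure D2:**
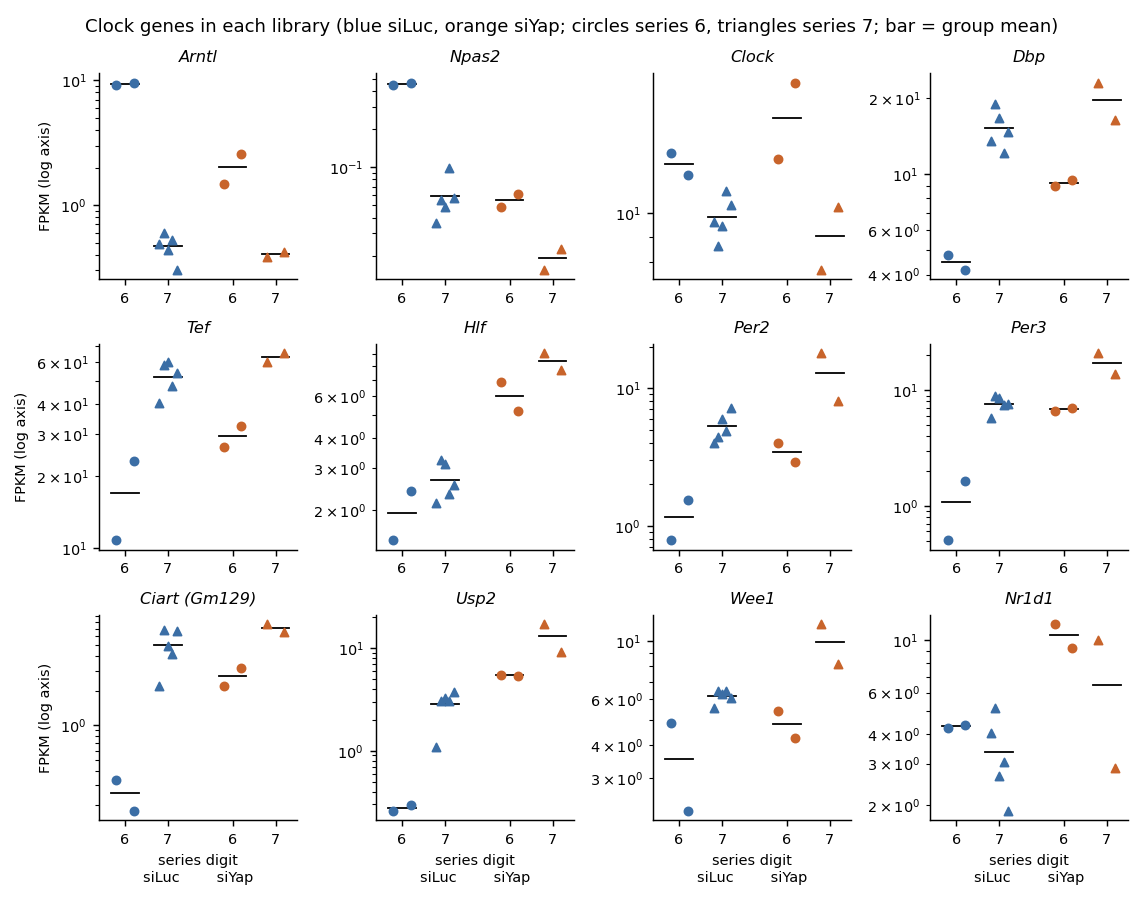
FPKM (log axis) of 12 clock genes in each of the 11 libraries, with siLuc in blue, siYap in orange, series 6 as circles, series 7 as triangles and a bar at the mean of each group. Arntl sits above 1 FPKM in all 4 libraries of series 6 and below 1 in all 7 of series 7, Dbp and Tef show the reverse order without overlap, and Nr1d1 shows no such split.

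The start regions of these genes were searched for the motifs named above. RefSeq windows from 250 bases before to 50 after a start site (GRCm38.p6, the assembly of mm10) matched 17 of the 21 clock genes, with 22 windows. Per2 and Wee1, which passed the test, were among those with no window. Both strands were searched for the E-box CACGTG, the D-box TTATGNAA, where N is any base, and the RORE, taken as AA, any base, T, any base and GGTCA. Among 32851 RefSeq windows of this length, 7.15% hold the E-box, 3.38% the D-box and 0.606% the RORE. These shares are per window, while the counts of clock genes are per gene, and some genes have more than 1 window. Among the clock genes, 5 hold an E-box (Cry1, Tef, Per1, Ciart and Bhlhe41), 2 a D-box (Per1 and Per3) and 1 the RORE (Arntl). A match says only that the letters are present. Windows of 4 genes are shown with the matches in capitals, because they hold each of the 3 motifs in genes described above: Arntl with the RORE 27 bases after its start site (chr7:113207261-113207560, plus strand), Tef with an E-box (chr15:81802423-81802722, plus strand), Ciart with 3 E-boxes (chr3:95882179-95882478, minus strand) and Per3 with 2 D-boxes (chr4:151044616-151044915, minus strand).
Arntl: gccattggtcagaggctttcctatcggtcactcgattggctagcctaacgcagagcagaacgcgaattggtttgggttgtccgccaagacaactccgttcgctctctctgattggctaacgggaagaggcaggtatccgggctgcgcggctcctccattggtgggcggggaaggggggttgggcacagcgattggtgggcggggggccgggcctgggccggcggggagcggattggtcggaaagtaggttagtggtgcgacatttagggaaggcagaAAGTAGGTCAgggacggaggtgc
Tef: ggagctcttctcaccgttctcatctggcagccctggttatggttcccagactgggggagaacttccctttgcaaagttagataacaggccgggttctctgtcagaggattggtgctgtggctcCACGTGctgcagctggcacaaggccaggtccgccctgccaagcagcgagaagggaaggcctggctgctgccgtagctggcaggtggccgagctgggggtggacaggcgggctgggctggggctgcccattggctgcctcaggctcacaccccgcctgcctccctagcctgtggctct
Ciart: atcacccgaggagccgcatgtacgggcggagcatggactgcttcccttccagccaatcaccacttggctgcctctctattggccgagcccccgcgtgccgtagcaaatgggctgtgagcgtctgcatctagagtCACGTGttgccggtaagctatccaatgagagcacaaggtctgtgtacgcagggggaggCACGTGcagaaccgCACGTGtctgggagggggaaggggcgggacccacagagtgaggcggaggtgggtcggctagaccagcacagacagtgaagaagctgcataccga
Per3: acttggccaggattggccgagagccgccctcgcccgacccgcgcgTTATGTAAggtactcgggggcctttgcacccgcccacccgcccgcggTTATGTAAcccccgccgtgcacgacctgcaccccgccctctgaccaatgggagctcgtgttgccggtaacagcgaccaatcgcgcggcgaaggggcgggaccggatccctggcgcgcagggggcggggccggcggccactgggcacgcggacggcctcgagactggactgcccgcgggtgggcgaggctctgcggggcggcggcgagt
No match overlaps another in these windows. Arntl, which holds the RORE in 1 of its windows and not in the other, fell in series 7, while Tef, with an E-box, rose. The other genes with an E-box (Cry1, Per1, Ciart and Bhlhe41) did not pass. The E-box was present in the windows of 1 of the clock genes that passed (Tef) and absent from that of Dbp, and both rose.

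Genes that followed the series and not treatment were few. This group was defined as genes that passed for the series, had an unadjusted p of at least 0.05 and a smaller difference for treatment, and had the same sign within siLuc and within siYap. It held 9 of the 15818 genes (0.0569%), 4 higher and 5 lower in series 7, and none from the clock, sterol or feeding lists. A treatment p above 0.05 does not show that treatment had no effect. Of the 36 genes, the other 27 also differed by treatment at an unadjusted p under 0.05, 24 of them in the same direction and 3 (Nmrk1, Inmt and Lpl) in the opposite one. For 31 of the 36 the series difference was the larger. In all 9 genes the 7 libraries of series 7 and the 4 of series 6 did not overlap. Of all genes tested, 0.689% had series 7 wholly above and 0.506% wholly below. Since the 9 were called on this contrast, this describes them and supports nothing further.

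Ifi44, an interferon-induced gene, fell in series 7. It was at 47.1 and 29.2 FPKM in siLuc and 47.7 and 21.8 FPKM in siYap libraries of series 6, and between 9.31 and 17.9 FPKM in the 7 of series 7. Its log2 difference was -1.47 ± 0.22 (SE, adjusted p = 0.0187), beside -0.31 for treatment (unadjusted p = 0.203). Without siYap replicate 3 the adjusted p for the series was 0.0510. Sdf2l1, a partner of endoplasmic reticulum chaperones, was at 14.8, 16.8, 10.9 and 13.8 FPKM in series 6 and at 4.64 to 10.9 FPKM in series 7, where siLuc replicate 4 was the highest. Its log2 difference was -1.20 ± 0.21 (SE, adjusted p = 0.0394). It passed without siLuc replicate 4 or siYap replicate 4 and had an adjusted p of 0.0539 to 0.106 without each of the other 9 libraries. Anxa2, an annexin that binds membranes with calcium, was at 52.1, 83.6, 47.5 and 65.9 FPKM against 25.4 to 44.6 FPKM (log2 difference -1.03 ± 0.16 SE, adjusted p = 0.0203; 0.0760, 0.0691, 0.0521 and 0.0508 without siLuc replicates 2, 5 and 7 and siYap replicate 3). Ypel2 was at 7.25, 9.43, 5.28 and 4.83 FPKM against 3.13 to 3.84 FPKM (-0.97 ± 0.15 SE, adjusted p = 0.0258; 0.0590 to 0.0806 without siLuc replicates 2, 4, 5, 6 or 7).

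On the rising side, Arf5, a small GTPase of vesicle traffic, was at 10.6, 13.7, 11.6 and 12.97 FPKM in series 6 and at 18.7 to 25.4 FPKM in series 7. Its log2 difference was 0.76 ± 0.13 (SE, adjusted p = 0.0394). Leaving out any 1 of the 11 libraries raised its adjusted p to between 0.0576 and 0.0986, so its call rests on the full set. Tspan4, a tetraspanin of the cell membrane (chromosome 7, 141475236 to 141493427), was at 17.9, 21.03, 12.5 and 18.8 FPKM against 30.0 to 40.1 FPKM (0.73 ± 0.13 SE, adjusted p = 0.0394). It passed only without siLuc replicate 1 (0.0494) and had an adjusted p of up to 0.106 without the others. Its annotated end overlaps that of Chid1 (141493136 to 141539905), which fell (-0.86 ± 0.12 SE, adjusted p = 0.0148), and whether fragments were counted by strand is not given in the sources used here. The split of fragments between them is therefore uncertain. Expressed copies stood at both ends of the group. Hmgb1-rs17, a copy related to the chromatin gene Hmgb1, was at 0.510, 0.868, 1.01 and 0.565 FPKM against 2.16 to 4.39 FPKM (2.09 ± 0.33 SE, adjusted p = 0.0264). Rps15a-ps6, a pseudogene of a ribosomal protein, was at 8.54, 5.47, 2.79 and 3.66 FPKM against 0.229 to 0.921 FPKM (-2.92 ± 0.39 SE, adjusted p = 0.0114), and passed without each library in turn. Hmgb1-rs17 did not pass without siLuc replicates 2, 5, 6 or 7 or siYap replicate 2 (adjusted p 0.0515 to 0.0691). Both share sequence with other copies, so their counts are uncertain. The ninth gene, 1700001L05Rik, was 1.51 higher on the log2 scale (adjusted p = 0.0394), and kept its call without siLuc replicate 3 but lost it without each other library (adjusted p up to 0.0871).

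The remaining genes that passed differed by treatment as well, and those named here were chosen after their values were seen. The transcript 4931408D14Rik, the only gene to pass with counts summed per number, was at 2.98, 1.27, 4.07 and 3.68 FPKM in series 6 and at 9.42 to 27.96 FPKM in series 7 (2.42 ± 0.23 SE, adjusted p = 0.00117). Ugt1a10, a glucuronosyltransferase that shares its last exons with the other Ugt1a genes and is uncertain for that reason, was at 0.0151 to 0.687 FPKM against 0.862 to 10.3 FPKM (4.38 ± 0.47 SE, adjusted p = 0.00180). Lower in series 7 were Slc30a10, a manganese exporter (-1.86 ± 0.24 SE, adjusted p = 0.00992), Igfbp3, a carrier of insulin-like growth factors (-1.66 ± 0.23 SE, adjusted p = 0.0115), and Chka, the choline kinase (-1.19 ± 0.16 SE, adjusted p = 0.0115). Lpl, which releases fatty acids from lipoproteins, was lower in series 7 (-0.95 ± 0.17 SE, adjusted p = 0.0394) and higher in siYap (0.47, unadjusted p = 0.0144). Its call held without siLuc replicate 2 or siYap replicate 1 and was lost, at up to 0.106, without each other library. Inmt, a methyltransferase, was at 209 and 280 FPKM in siLuc and 36.1 and 54.0 FPKM in siYap libraries of series 6. In series 7 it was at 649 to 1064 FPKM in siLuc and 299 and 684 FPKM in siYap (2.09 ± 0.35 SE, adjusted p = 0.0337). Inmt thus rose in series 7 while it was 1.34 lower in siYap on the log2 scale. It passed without siLuc replicates 1, 3 or 4 or siYap replicate 4, and had an adjusted p of 0.0521 to 0.0872 without each of the other 7 libraries. Ndrg1, a hypoxia-induced gene, was at 23.4 and 40.3 FPKM in siLuc libraries of series 6, at 7.86 to 8.62 FPKM in those of series 7 and at 6.20 to 10.7 FPKM in the 4 siYap libraries. Its call (-1.45 ± 0.26 SE, adjusted p = 0.0494) held without siYap replicate 2 or 4 and was lost, with an adjusted p between 0.0589 and 0.125, without each other library. Myom2, a muscle sarcomere gene, had 91 and 12 fragments in siLuc replicates 1 and 2, 11 and 1 in siYap replicates 1 and 2 and at most 1 in series 7, so its difference rests on 3 libraries, and it passed in 3 of the 11 fits without single libraries.

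**Figure D3:**
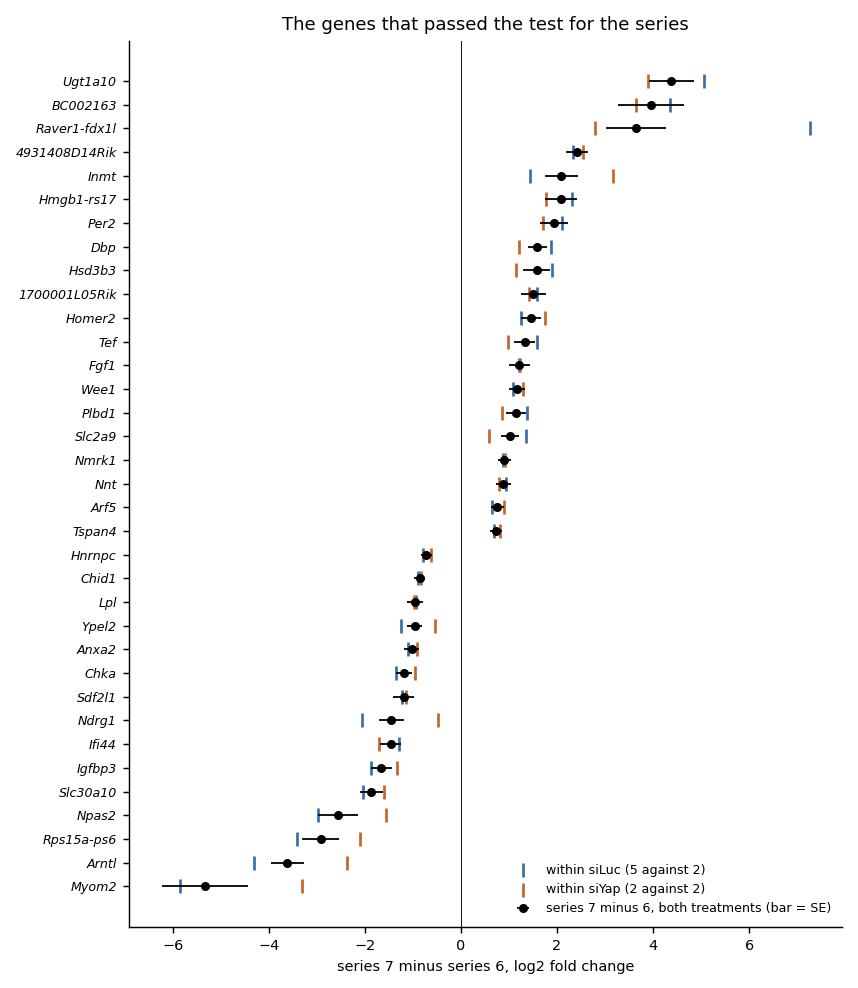
Log2 fold change of series 7 against series 6 for 35 of the 36 genes that passed, as a black point with its standard error, with the value within siLuc as a blue tick and within siYap as an orange tick. All blue and orange ticks lie on the same side of 0 as the black point of their gene; those of Raver1-fdx1l, Ndrg1 and Arntl lie far apart.

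Within siLuc alone, on the shared spread of all 11 libraries, 33 genes (0.209%) passed, 16 higher and 17 lower in series 7, of which 15 were among the 36. Within siYap, where 2 libraries stood against 2, 5 genes (0.0316%) passed and all were higher, among them Inmt, 4931408D14Rik, Ang3 and Camk2b. The within-siLuc count was 105 without siLuc replicate 2, 74 without replicate 1 and 17 without replicate 5. The within-siYap count was 55 without siYap replicate 2 and 2 without siYap replicate 3. A test of whether the series difference itself differed between treatments passed for 2 genes (0.0126%), Camk2b and G6pc, while 1013 genes (6.4%) had an unadjusted p under 0.05. G6pc, the last enzyme of glucose release, was at 82.8 and 170 FPKM in siLuc libraries of series 6 and at 11.4 to 24.5 FPKM in those of series 7. In siYap it went the other way, from 23.1 and 17.3 to 110 and 108 FPKM, and the 2 log2 differences, -2.84 and 2.46, were 5.30 apart (adjusted p = 0.00408). Camk2b, a subunit of a calcium-dependent kinase, was at 2.57 and 6.86 FPKM in siLuc libraries of series 6 and at 0.765 to 1.56 FPKM in those of series 7. Its siYap libraries held 0.0124 and 0.00719 FPKM in series 6 and 1.90 and 1.48 FPKM in series 7, and the difference of differences was 9.27 (adjusted p = 0.000317).

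No gene of feeding or sterol metabolism on the lists passed for the series. None of the 25 cholesterol synthesis genes passed, 2 were higher at an unadjusted p under 0.05, and the median log2 difference was 0.00, with a sign that changed in 14 of 32 settings. Without siYap replicate 2 the median was 0.285 and 1 gene passed. Hmgcs1 and Idi1, enzymes of this path, had 1 high library each, siYap replicate 2 at 658 and 608 FPKM, and log2 differences of -0.24 and -0.10. Insig1, which holds the sterol sensor in place, had a log2 difference of 0.19, the regulator Srebf2 one of 0.30 and the squalene epoxidase Sqle one of -0.23, and none of them passed. The 16 genes of sterol efflux and bile acid synthesis had a median of 0.13 and none passed. Cyp7a1, the rate-limiting enzyme of bile acid synthesis, ran from 5.08 to 451 FPKM in series 6 and from 19.2 to 568 FPKM in series 7, a spread within each series that covers their difference (0.46 ± 0.72 SE).

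No lipogenic gene passed, although more of them were higher than lower in series 7. Of the 24 genes of lipogenesis and glucose use, 19 were higher, where 48.5% of all genes were. Of the 19, 9 had an unadjusted p under 0.05, as did 1 lower gene. The median was 0.22 (0.16 to 0.77 over the alternatives, never below 0). Fasn, the fatty acid synthase, was at 13.6 and 11.98 FPKM in siLuc and 29.3 and 47.6 FPKM in siYap libraries of series 6, and at 17.8 to 23.6 and at 148 and 46.8 FPKM in series 7 (0.81 ± 0.28 SE, adjusted p = 0.310). The regulator Srebf1 (0.48), the pyruvate kinase Pklr (1.07) and Thrsp (0.88) were alike uncalled, with adjusted p of 0.346, 0.395 and 0.357. The medians of the fasting lists were near 0 over all 11 libraries, which for fatty acid oxidation rested on 1 library. The 18 genes of gluconeogenesis had a median of 0.02 and the 27 of fatty acid oxidation 0.04, both with no call and with signs that changed in 10 and 7 settings. Without siLuc replicate 1 the median of fatty acid oxidation was 0.524. Of its 27 genes 25 were then higher, 13 of them at an unadjusted p under 0.05. With that library 15 were higher, 5 of them at an unadjusted p under 0.05. Acot1, an acyl-CoA thioesterase of that list, passed as lower without siYap replicate 4 (adjusted p = 0.0294). Pck1 (0.51), Cpt1a (0.23), Angptl4 (0.33) and Pdk4 (0.04) did not pass. Igfbp1, a liver gene held down by insulin, was at 157 and 234 FPKM in siLuc libraries of series 6 and 31.3 to 95.6 FPKM in those of series 7, and at 49.1, 204, 155 and 246 FPKM in siYap replicates 1 to 4 (-1.17 ± 0.54 SE, adjusted p = 0.490). Fgf21, a fasting hormone of the liver, ran from 1.41 to 122 FPKM in series 6 alone.

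Of the lists of tissue handling, that of hypoxia and that of heat shock and cold-inducible genes each held 1 gene that passed. The latter list also holds genes of the endoplasmic reticulum. Its 1 call, Sdf2l1, is among these and is not a heat shock or cold-inducible gene. Of the 24 immediate early genes, none passed, with 1 higher and 1 lower at an unadjusted p under 0.05 and a median of 0.10. Without siLuc replicate 1 the median was 0.306, 20 of the 24 were higher, 5 of them at an unadjusted p under 0.05, and Maff, a small Maf transcription factor, passed (1.38, adjusted p = 0.00791). Fos, which rises within minutes of injury, was at 3.32 and 3.70 FPKM in siLuc libraries of series 6 and 2.69 to 4.84 FPKM in those of series 7 (-0.19 ± 0.29 SE, adjusted p = 0.881). Jun (-0.18), Egr1 (-0.10) and Atf3 (-0.72) did not pass. The heat shock genes Hspa1a (0.73) and Hspa1b (0.67) and the cold-induced Cirbp (0.39) did not pass either, while Sdf2l1 of the same list fell. Rbm3, also of that list, passed as higher without siYap replicate 2 (1.459) or siYap replicate 3 (1.432). Creld2, also a gene of the endoplasmic reticulum, passed as lower without siYap replicate 2 (-0.885), and Manf, another, without siYap replicate 4 (-0.956). Of the 16 glucocorticoid genes none passed and the median was -0.01. Tsc22d3, a glucocorticoid target, was at 17.9, 43.8, 54.5 and 61.8 FPKM in series 6 and 30.5 to 140 FPKM in series 7 (1.01 ± 0.35 SE, adjusted p = 0.306), and Fkbp5, another, was 0.26 higher (adjusted p = 0.614). The 21 hypoxia genes held 1 fall, Ndrg1, and had a median of -0.09. Without siLuc replicate 1 Ndrg1 did not pass and Pdk1, a kinase that holds back pyruvate oxidation, passed as higher (adjusted p = 0.0184).

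Many lists outside the clock had a median below 0 in series 7, those of stress and defence among them, with at most 1 call each over the 11 libraries. Of 34 interferon-stimulated genes, Ifi44 fell. At an unadjusted p under 0.05, 15 of the 34 were lower and 1 was higher, and the median over all 34 was -0.36 (-0.47 to -0.19 over the alternatives). Isg15 passed as lower without siYap replicate 2 (-1.793) or siYap replicate 3 (-1.92). Mx2 passed as lower without siYap replicate 2 (-1.088), and Ifit1 without siYap replicate 4 (-1.152). Of 19 genes of the endoplasmic reticulum and integrated stress responses, none passed. At an unadjusted p under 0.05, 9 of them were lower and 1 was higher, and the median was -0.62 (-0.67 to -0.27). Asns, the asparagine synthetase, had the smallest p of that list (-1.85, adjusted p = 0.0907), and Trib3, a pseudokinase induced by stress, passed as lower without siYap replicate 1 (0.0324). Of the 18 genes on the heat shock and cold-inducible list, Sdf2l1 fell and the median was -0.31. Sdf2l1, of the endoplasmic reticulum, is not on the stress response list. The 25 acute phase genes had no call, 6 lower at an unadjusted p under 0.05 and a median of -0.47, and the 37 cytoplasmic ribosomal protein genes no call, 10 lower and a median of -0.33. Without siLuc replicate 1 the ribosomal median was -0.109 with 1 lower gene at an unadjusted p under 0.05, and the medians of the stress response, interferon and heat shock lists were -0.321, -0.213 and -0.159. That of the acute phase list was -0.233 without siYap replicate 1. Lists of other functions were as low. Over all genes tested, 48.5% were higher in series 7. Of 30 cell cycle genes 28 were lower (median -0.43), of 18 oncofetal genes 16 (-0.50), of 16 periportal hepatocyte genes 13 (-0.86) and of 23 replication-dependent histone genes 23 (-0.27), with no call. The periportal median was 0.0512 within siLuc and -1.7 within siYap, and the oncofetal one -0.0945 and -0.831. Those of the cell cycle and histone lists were below 0 within both treatments. The cell cycle median was -0.779 without siLuc replicate 1, where Ccna2, Mcm6, Tpx2 and Ttk passed as lower, and 0.0468 without siLuc replicate 2. Without siYap replicate 1 the periportal median was 0.0668 and the oncofetal one -0.125, and the histone median ran from -0.602 without siLuc replicate 1 to -0.142 without siLuc replicate 2. On the other side, 22 of 25 sex-biased and growth hormone dependent liver genes were higher in series 7, with no call, 8 at an unadjusted p under 0.05 and a median of 0.74. Cyp3a16 had the smallest p there (3.38 ± 0.63 SE, adjusted p = 0.0583), from 0 to 0.433 FPKM in series 6 and 0.0624 to 4.25 FPKM in series 7, and it passed without siLuc replicate 3 (0.0315). The median of that list was 0.468 without siLuc replicate 2 and 1.15 without siYap replicate 3. All 20 pericentral hepatocyte genes were higher, none passed, and the median was 0.69, which fell to 0.07 with no term for treatment.

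Markers of other cell types did not pass for the series in any list over the 11 libraries. Without siYap replicate 1 the macrophage list gained Ccr2, a chemokine receptor of monocytes (1.61, adjusted p = 0.00486), and the neutrophil list Chi3l3 (1.64, adjusted p = 0.0364), both higher in series 7. The summed level of the 20 endothelial markers was 128 to 221 FPKM in series 6 and 125 to 224 FPKM in series 7, and none of the 20 had an unadjusted p under 0.05. The 24 T and NK cell markers summed to 13.2 to 41.2 FPKM and 26.3 to 55.7 FPKM. Of these 24, 22 were higher in series 7, where 48.5% of all genes were. Their median was 0.49 over both treatments, 1.09 within siLuc and -0.14 within siYap. It was 0.272 without siLuc replicate 2 and 1.07 without siYap replicate 1. The macrophage markers (493 to 1040 FPKM against 740 to 1690 FPKM), the neutrophil markers (443 to 2130 FPKM against 368 to 726 FPKM) and the stellate and fibroblast markers (295 to 1040 FPKM against 306 to 533 FPKM) overlapped between the series. The biliary markers (440 to 4580 FPKM against 247 to 5220 FPKM), the B and plasma cell markers (170 to 262 FPKM against 184 to 387 FPKM) and the erythroid markers (49.6 to 85.4 FPKM against 49.0 to 77.2 FPKM) overlapped as well. Medians of the macrophage, neutrophil, stellate, biliary and B and plasma cell lists were also positive within siLuc (0.37, 0.503, 0.363, 0.048 and 1.15). Within siYap they were negative (-0.129, -1.12, -1.13, -0.995 and -0.132). The endothelial median was -0.126 within siLuc and 0.0663 within siYap, and the erythroid one -0.268 and -0.127. Of the 31 markers of pancreas, gut, muscle and fat, 18 were under 0.1 FPKM in every library, the pancreatic Prss1 and Cpa1 and the muscle gene Ckm among them. The part of these cell types in the series differences was not tested. Transcripts of structural non-coding RNA were -0.36 lower in the median of 14 genes, with no call. The 21 Yap and Taz targets, which mark the treatment, had a series median of -0.05 and no call.

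**Figure D4:**
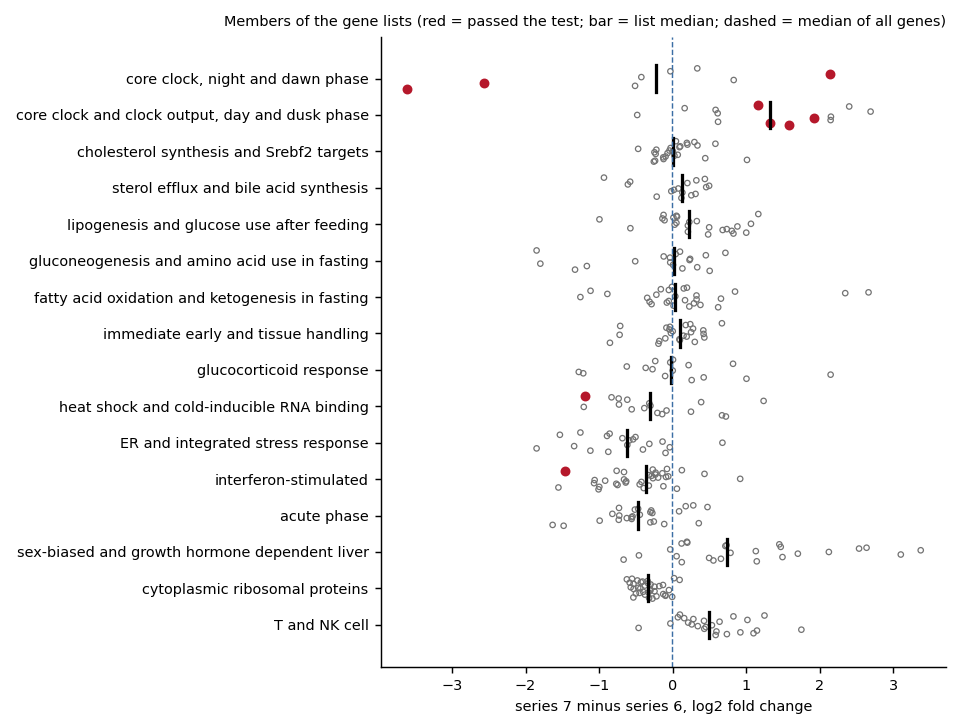
Log2 fold change of series 7 against series 6 for each tested member of 16 of the 33 gene lists, with open circles for genes that did not pass, red for genes that passed, a black bar at each list's median and a dashed line at the median of all genes (-0.01). The day and dusk clock list (median 1.32) and the sex-biased list (0.74) sit to the right, the stress, interferon and acute phase lists sit to the left, and red points occur in 4 of the lists shown.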

How the data were processed

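RNA of 11 mouse liver tumour libraries was analysed. The kit was ScriptSeq Complete Gold and the sequencer a HiSeq2500, per the labels' protocols. The submitters' processing notes name Trimmomatic 0.30, TopHat2 2.0.8, Cuffdiff 2.1.1, Cufflinks and the build mm10. The gene annotation, the use of strand and the counting of reads with several matches: not given in the sources used here. Per the file headers, the authors deposited for each library the raw fragments of each gene (estimated counts, 97.6% to 98.0% of them within 1e-06 of a whole number) and FPKM values from Cuffdiff. Alb, Apob and Trf, marked by the authors as too deep to estimate, were left out. Genes with a failure mark in at least 1 library (21) stayed in. The FPKM table of the whole series was left unused.

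Estimated counts were rounded and tested with edgeR 4.0.16 in R 4.3.3 (quasi-likelihood F test, robust, TMM, its own filter on low counts by the 4 groups of series and treatment). Series and treatment were terms, with Benjamini-Hochberg adjustment over 15818 genes. Genes passed at an adjusted p under 0.05. Differences are series 7 minus series 6 unless named otherwise, and a standard error is the log2 fold change over the root of F. Levels are deposited FPKM. Values within 1 treatment, and the difference between treatments, came from a fit with 4 group means. The scripts were tested on simulated data.

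The members and gene lists were chosen with earlier results of these data known. Genes were named by this rule: a panel of clock, sterol, feeding and handling genes; up to 12 rises and 12 falls among genes that followed the series and not treatment, with a mean of 1 FPKM or more in either series, the same sign without each library, and no name of the Rik or Gm kind (8 genes met it); and up to 4 members of each list that passed. Some panel genes and 1 gene that passed, though counted, are not reported here by name. Other genes named, the smallest p of a list among them, were chosen after their values were seen. Gene positions are those of RefSeq GRCm38.p6, matched for 23199 of 23358 symbols. Ciart, Msmo1, Adgre1 and Hbb-bs were found under older symbols.

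Alternatives were other scaling and filters, each library or file-name number left out, counts summed per number, no treatment term, all 13 libraries, 1 treatment alone, equal weights of both treatments, DESeq2 1.42.0, limma 3.58.1 on voom values with the number or the replicate as a random effect, and limma on FPKM with a pseudocount of 1 or 0.1 before log2, restricted to genes that reached 1 FPKM in 4 libraries. Of these, limma-voom with no random effect and the count of clock genes under each alternative, were added once the data had been seen. Sampling noise did not account for the difference between any libraries of a group (chi-square per degree of freedom 33.3 or more), so none was treated as a copy of another. This does not show that libraries of 1 file-name number are independent. List medians without single libraries were also added after the data had been seen.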

Additional observations from a re-analysis of the deposited data

Results flagged for a closer look

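Within the 5 siLuc libraries of series 7, 80 genes named in the text or measured as panel genes were checked for a library that stood apart from the other 4 by Dixon's ratio of gap to range. It marks about 1 group in 20 by chance, and it marked 8 here. Per1 was lowest in siLuc replicate 3, at 1.17 FPKM against 2.70 to 2.95 FPKM in the others, and Cpt1a was also lowest there, at 62.3 FPKM against 69.4 to 72.2 FPKM. In siLuc replicate 4, Hmgcs1 was highest at 152 FPKM (111 to 119 FPKM in the others), Sdf2l1 was highest at 10.9 FPKM (5.37 to 6.90 FPKM) and Hnrnpc was lowest at 27.6 FPKM (33.1 to 34.4 FPKM). Inmt was highest in siLuc replicate 5, at 1064 FPKM against 649 to 758 FPKM. Igfbp1 was highest in siLuc replicate 7, at 95.6 FPKM against 31.3 to 46.9 FPKM. Myom2 was lowest in that library, at 0 FPKM against 0.00502 to 0.00594 FPKM, where the others held 1 fragment each.

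The series difference itself differed between treatments for 2 genes. The log2 difference of Camk2b in siYap exceeded that in siLuc by 9.27 (edgeR's quasi-likelihood test, adjusted p = 0.000317). Both siYap libraries of series 7 lay above both of series 6, while all 5 siLuc libraries of series 7 lay below both of series 6. That of G6pc did so by 5.30 (adjusted p = 0.00408), and its libraries lay in the same order.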

How the results depend on the processing

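The series count of 36 was 33 with DESeq2's size factors, 36 with upper-quartile scaling, 41 with no filter, 31 with a mean count of at least 50, 37 with equal weights, 38 with limma-voom and 54 and 53 with limma on log2(FPKM + 1) and log2(FPKM + 0.1). It was 9, 23 and 5 without file-name numbers 89, 94 and 96, 1 with counts summed per number, 1 with no treatment term, 22 with all 13 libraries, 365 with DESeq2's Wald test and 6 at an adjusted p under 0.01. It was 310 with the number as a random effect, whose estimated correlation of -0.22 makes no allowance for a shared source. Single libraries left out gave 14 to 66. Clock genes that passed (7) numbered 1, 2, 0, 1 and 11 without numbers 89 and 96, summed per number, with no treatment term and with DESeq2, and 3 to 10 without single libraries. For the 0, 1722 of all genes had an unadjusted p under 0.05. Genes that followed the series and not treatment (9) numbered 3, 21 and 1 without numbers 89, 90 and 96, 0 summed per number, 3 with all 13 libraries, 130 with DESeq2, 95 with the number as a random effect, 16 with limma on log2(FPKM + 1) and 2 to 14 without single libraries. The count within siLuc (33) was 58 in siLuc alone, 370 with DESeq2 and 17 to 105 without single libraries. That within siYap (5) was 3 with a mean count of at least 50, 0 in siYap alone (599 at an unadjusted p under 0.05), 119 with DESeq2 and 2 to 55 without single libraries. The count of genes whose difference depended on treatment (2) was 105 with DESeq2 and 2 to 21 without single libraries. Number 89 holds all siLuc libraries of series 6, so without it only the siYap contrast is left: the series difference of G6pc turned to 2.46 and that of Camk2b to 7.09, and with equal weights, which raise the share of siYap, that of Camk2b turned to 2.46. Among genes that passed in neither fit, sign changes (81 over all genes and settings) are not listed. A replicate block cannot be fitted as a fixed term, since replicates 1 and 2 of both treatments are all of series 6. As a random effect the replicate block (correlation -0.04) gave 44 genes. Same-numbered libraries of the 2 treatments had correlations of -0.124, 0.119, 0.046 and 0.121, not all above 0.1, and not every library correlated best with its own number.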

Other observations

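The 2 libraries with the digit 8 entered no comparison, and each is a single library of its treatment. siLuc replicate 8 held 28874 fragments of Y-linked genes, against at most 11 in the other 12 libraries, with Xist at 10.6 CPM. Its Arntl was at 3.35 FPKM, Dbp at 3.20 FPKM, Per2 at 3.61 FPKM and Nr1d1 at 0.297 FPKM, so that Arntl lay within the range of series 6 and Dbp below that of both series. In siYap replicate 5, Arntl was at 1.11 FPKM, Dbp at 13.1 FPKM, Per2 at 3.31 FPKM and Nr1d1 at 5.93 FPKM. In siLuc replicate 8, Cry1, a repressor of the late night, was at 8.39 FPKM, above all 11 libraries of series 6 and 7, and Nr1d1 was below all of them. Among genes that followed the series and not treatment, Ifi44 was at 2.56 FPKM in siLuc replicate 8 and 31.8 FPKM in siYap replicate 5, and Arf5 was at 18.8 and 17.3 FPKM.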
